A study of Mus musculus with 6 samples.

Results

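The nuclear receptor superfamily was described in liver of mice lacking the lysosomal transporter Spns1, through 40 of the 54532 genes listed in the deposited RNA-Seq table, picked by gene name. Nuclear receptors are transcription factors, most of which bind DNA through a zinc finger domain and many a small lipophilic ligand through a second domain. They grouped here by role into RXR heterodimer partners, retinoic acid receptors, sensors of sterols and fatty acids, xenobiotic sensors, receptors for thyroid and steroid hormones, clock receptors, the NR4A receptors and other orphan receptors, which have no settled natural ligand. In the liver these receptors are known to set the expression of genes for bile acid, lipid, glucose and drug metabolism, and many of them bind DNA only as a dimer with an RXR.

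The study compared 3 gSpns1-cKO mice with 3 control mice, with 1 liver library per mouse, all in the C57BL/6 background. gSpns1-cKO mice were Spns1 fl/fl animals that also carried Rosa26Cre-ERT2, and tamoxifen given after birth led to deletion of exon 3 in the whole body, so that hepatocytes and all other liver cells were targets. The labels call the control mice wild type, while the study describes the controls as Spns1 fl/fl littermates without Cre. Neither source gives the age at which these livers were taken, nor whether these control mice received tamoxifen. The study's methods report similar findings in male and female animals and do not give the sex of these mice.

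Libraries held 30350002 to 35295611 counts in 1 poly(A) RNA library per liver. Spns1 itself, the targeted gene, was at 35.9, 50.7 and 34.6 CPM (read counts scaled to a common library size) in control livers and 17.9, 30.6 and 17.8 CPM in the gSpns1-cKO livers, a log2 fold change of −0.87 ± 0.25 (SE, adjusted p = 0.02997). The groups did not overlap, and this call was lost in 5 of 15 alternative settings (adjusted p from 9.05e-09 to 0.213), among them those without control 2 (0.0785), cKO 1 (0.0910) or cKO 3 (0.0830). Marker genes of liver cell types also differed. Hepatocyte markers summed to 113400 to 125000 CPM in control and 69900 to 77740 CPM in gSpns1-cKO livers, with 7 of 10 lower. Macrophage markers summed to 184 to 297 and to 710 to 1029 CPM, with 10 of 10 higher, cholangiocyte markers to 59.7 to 78.2 and to 188 to 303 CPM, with 7 of 8 higher, stellate cell and fibroblast markers to 200.2 to 235 and to 548 to 588 CPM, with 7 of 9 higher, and endothelial markers to 225 to 244 and to 301 to 352 CPM, with 5 of 9 higher. No marker of these 5 lists was at 0 in all libraries of a group. In whole liver a lower level can mean fewer cells of a type or less RNA per cell, which cannot be told apart, and the part of cell makeup in the results was not tested.

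Of the 40 receptor genes, 34 had enough counts to be tested and 14 passed an adjusted p of 0.05 in edgeR's quasi-likelihood test, or 41.2% of those tested, beside 41.8% of all 15449 genes tested. The share of members that differed was thus near that of the table as a whole. By direction, 11 receptor genes fell in gSpns1-cKO liver, or 32.4% beside 20.5% of all genes, and 3 rose, or 8.8% beside 21.3%. The background itself leaned the same way at higher levels: of 9731 genes averaging 5 CPM or more over all libraries, 28.1% were lower and 16.8% higher. Of the 28 receptor genes averaging 5 CPM or more in either group, 10 were lower and 2 higher. The 2 filters differ, and Nr1h5, among the 2 higher, entered only through its gSpns1-cKO mean (2.85 CPM in control and 5.59 CPM in gSpns1-cKO liver). The number of receptor genes higher was 6 with DESeq2's Wald test, with a filter of at least 1 count in any library or with the replicate block. Among the 14, Esrrg, Rarb and Rarg differed by at least 2-fold, which is 3 receptor genes, beside 17.9% of all genes tested that passed with such a fold. The 2 groups of mice did not overlap for 21 of 34 receptor genes, or 61.8% beside 54.1% of all genes. Leaving out 1 library gave 2 to 5 receptor genes higher and 7 to 13 lower, with 5 higher without control 1 or cKO 1 and 7 lower without control 3 or cKO 3.

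The balance of directions depended on how the libraries were scaled. With TMM scaling, 50.9% of the calls over all genes were higher in gSpns1-cKO liver, whereas with upper-quartile scaling this was 64.7% and with library totals alone 88.3%. With totals alone the log2 fold change had a median of 0.46 in place of 0.01 over all genes, and of 0.26 in place of −0.19 over the receptor genes, with 12 receptor genes higher and 2 lower. Measured against the median of all genes, the receptor median stood at −0.20 with TMM, −0.20 with totals alone and −0.20 with upper-quartile scaling, and between −0.26 and −0.16 over the 15 alternatives. Upward or downward changes below are on the TMM scale. The 9 calls of Nr1d2, Nr1h3, Nr1i2, Nr2f2, Nr2f6, Nr3c2, Ppara, Rara and Esrrg were lost with library totals alone (adjusted p from 0.0636 to 0.933), and 5 were kept with it, namely those of Rxra, Rxrb, Rarb, Rarg and Nr1h5.

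**Figure D1:**
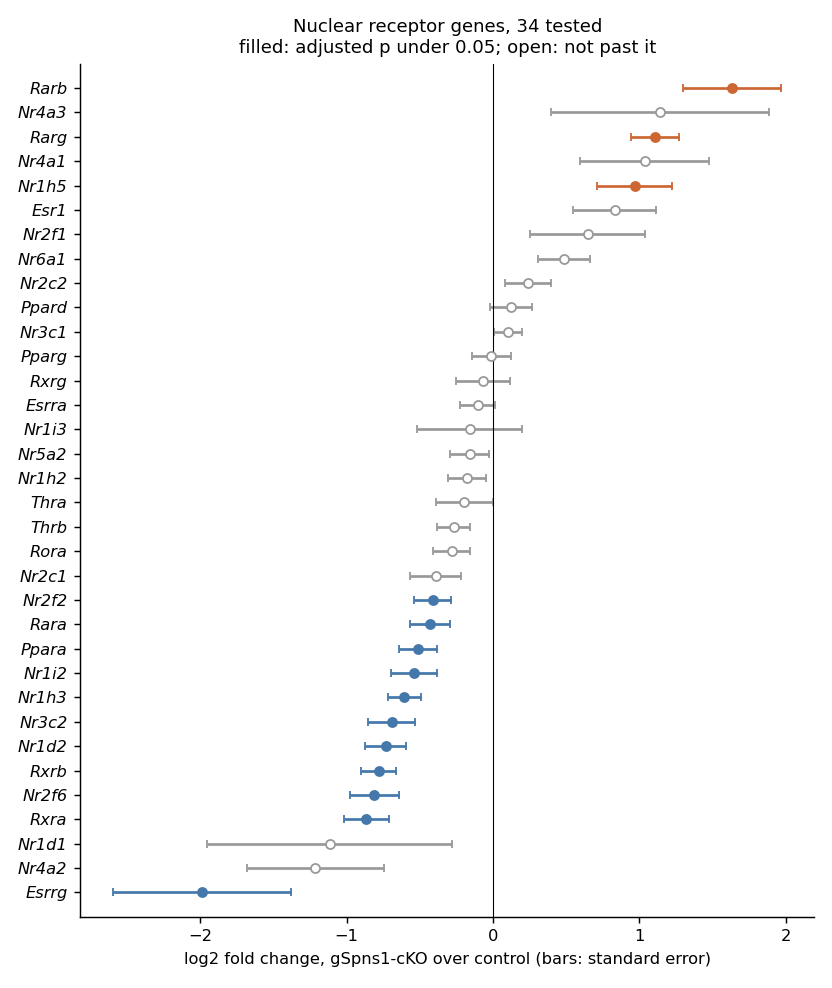
Log2 fold change (gSpns1-cKO over control, TMM-scaled, x axis) of the 34 tested nuclear receptor genes (y axis), with bars for the standard error and filled points for an adjusted p under 0.05. The 11 genes that fell lie between −1.99 (Esrrg) and −0.41 (Nr2f2) and the 3 that rose between 0.97 (Nr1h5) and 1.63 (Rarb); with library totals alone the points move right and 12 of them cross 0, among them Rara, Nr2f2, Esrra and Pparg.

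Levels were compared between genes as CPM per kilobase of gene length. Rxra was the most abundant receptor transcript of the 40, at 101 ± 15.0 CPM per kilobase (SD, n = 3) in control liver, which was 25.3% of the summed level of all members. Nr1h3 followed at 52.1 ± 3.98 and Nr1i2 at 43.1 ± 3.26 CPM per kilobase. Nr2f6 (24.1 ± 5.22), Nr1d2 (22.2 ± 2.12), Nr1d1 (20.99 ± 6.75), Esrra (19.5 ± 1.74) and Ppara (17.8 ± 2.72) came next, neighbours whose levels lay within each other's spread. In gSpns1-cKO liver the first 3 places were the same, with Rxra at 55.3 ± 5.48 CPM per kilobase or 20.1% of the sum, Nr1h3 at 34.3 ± 2.43 and Nr1i2 at 29.6 ± 7.05. Esrra moved from the seventh place to the fourth, at 18.2 ± 2.30 CPM per kilobase. Summed over the 40 genes, the receptor level was 379, 410.3 and 404 CPM per kilobase in the 3 control livers and 281, 291 and 252 in gSpns1-cKO livers, without overlap on the TMM scale. With library totals alone, an alternative added after seeing the data, the sums were 328, 358 and 337 against 325, 342 and 294, which overlapped.

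RXRs are the shared partners of most ligand-sensing receptors. Rxra (chr2:27676440-27762957, plus strand, GRCm38) was at 463, 625 and 562 CPM in control and 299, 333 and 273 CPM in gSpns1-cKO livers. Every gSpns1-cKO liver lay below every control liver, and Rxra was 1.82-fold lower (log2 fold change −0.87 ± 0.15, SE, adjusted p = 0.00147). Rxrb (chr17:34031812-34038393, plus strand), the widely expressed isotype, was at 39.7, 50.6 and 46.8 CPM in control and 28.1, 27.6 and 24.1 CPM in gSpns1-cKO livers. The groups again did not overlap, with a 1.72-fold lower level (−0.78 ± 0.12, adjusted p = 0.000690). Both calls were kept in all 15 alternative settings, with log2 fold changes from −0.99 to −0.42 for Rxra and from −0.89 to −0.34 for Rxrb. Rxrg, the isotype best known from muscle and brain, was at 6.30, 7.63 and 5.73 CPM and at 7.26, 6.31 and 5.24 CPM, which overlapped (−0.07 ± 0.19, adjusted p = 0.800).

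Many receptors of this family recognise the hexamer AGGTCA, singly or in pairs. The 250 bases before each start site in RefSeq (GRCm38.p6) were searched on both strands for these letters, which were present in 10 of 55 promoters of the 37 receptor genes with an entry, or 18.2%, beside 14.02% of all 32851 promoters. An E-box, CACGTG, was present in 7.3% beside 6.02%, and the cyclic AMP response element TGACGTCA in 0 of 55 beside 1.55%. A match is a description of letters and not of a bound site. The windows below belong to Rxra and Rarg, whose calls were kept in all alternatives, and to the clock receptor Nr1d2, and were chosen after their values were seen, with capitals marking the hexamer, or TGACCT where it lies on the other strand, and each is written along the strand of its gene.
Rxra, chr2:27709193-27709222, position -87 from a start site: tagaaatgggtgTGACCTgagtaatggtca
Rxra, chr2:27709232-27709261, position -48: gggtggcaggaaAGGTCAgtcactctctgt
Rarg, chr15:102257730-102257759, minus strand, position -225: agcccaggacacTGACCTctgccagctctg
Nr1d2, chr14:18239166-18239195, minus strand, position -77: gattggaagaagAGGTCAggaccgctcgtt
Both windows of Rxra lie before the same RefSeq start, which is inside the span of the gene as listed, so they belong to an internal start site. Rara held an E-box, in capitals, at position -10 of one of its promoters on chr11:98937696-98937717: tttcagcctctgCACGTGactc.

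Retinoic acid receptors bind all-trans retinoic acid as dimers with RXR, and their 3 isotypes moved apart. Rarg (chr15:102234938-102257517, minus strand) was at 5.90, 6.14 and 4.51 CPM in control and 13.2, 11.3 and 11.3 CPM in gSpns1-cKO livers. Rarg rose 2.15-fold without overlap (1.11 ± 0.16, adjusted p = 0.000541). Rarb (chr14:16430839-16819156, minus strand), itself a well-known target of retinoic acid, had 31, 32 and 13 counts in control and 119, 111 and 84 counts in gSpns1-cKO livers. It rose 3.10-fold (1.63 ± 0.33, adjusted p = 0.00334) from the lowest level of the 3. Both calls were kept in all 15 alternatives, with log2 fold changes from 0.97 to 1.55 for Rarg and from 1.36 to 2.07 for Rarb. Exons of Rarb share 34.1% of their bases with Top2b on the opposite strand. Before scaling, Top2b had 1228, 1261 and 1205 counts in control and 1779, 1862 and 2043 in gSpns1-cKO livers. TMM scaling lowers gSpns1-cKO values relative to control values, so a rise in these counts is larger than the rise in level. The strand setting of the counting is not given in the sources used here, so reads of the 2 genes cannot be told apart over those bases.

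Rara, the most abundant isotype, went the other way on the TMM scale, at 16.3, 19.3 and 21.7 CPM in control and 15.5, 13.2 and 13.8 CPM in gSpns1-cKO livers. Its fold was small at 1.35-fold lower (−0.43 ± 0.14, adjusted p = 0.0270). The call of Rara was lost without control 2 (adjusted p = 0.0625), control 3 (0.0961), cKO 2 (0.0802) or cKO 3 (0.0885) and with upper-quartile scaling (0.0877), and its direction turned with library totals alone, in a range of adjusted p from 0.0120 to 0.933 over the alternatives.

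The shares of isotypes within a subfamily do not depend on the scaling of the libraries. Rara made up 70.1, 72.9 and 81.2% of the summed RAR level per kilobase in control livers and 48.9, 48.6 and 50.9% in the gSpns1-cKO livers. Rarg took 26.0, 23.8 and 17.3% in control and 42.5, 42.6 and 42.6% in gSpns1-cKO livers, and Rarb went from 2.93 ± 1.20% to 8.00 ± 1.29% (SD, n = 3). No share of these 3 isotypes overlapped between the groups, and each had an exact two-sided permutation p of 0.1, the smallest that 3 mice against 3 can give (adjusted p = 0.163 over 31 shares). The RXR composition moved less: Rxra went from 86.8 ± 0.487% to 84.8 ± 1.04%, and Rxrg from 2.48 ± 0.343% to 4.19 ± 0.546%, also with p = 0.1 in the exact permutation test. Rxrb held 10.7 ± 0.264% and 11.04 ± 0.542%, which overlapped (exact permutation p = 0.4).

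**Figure D2:**
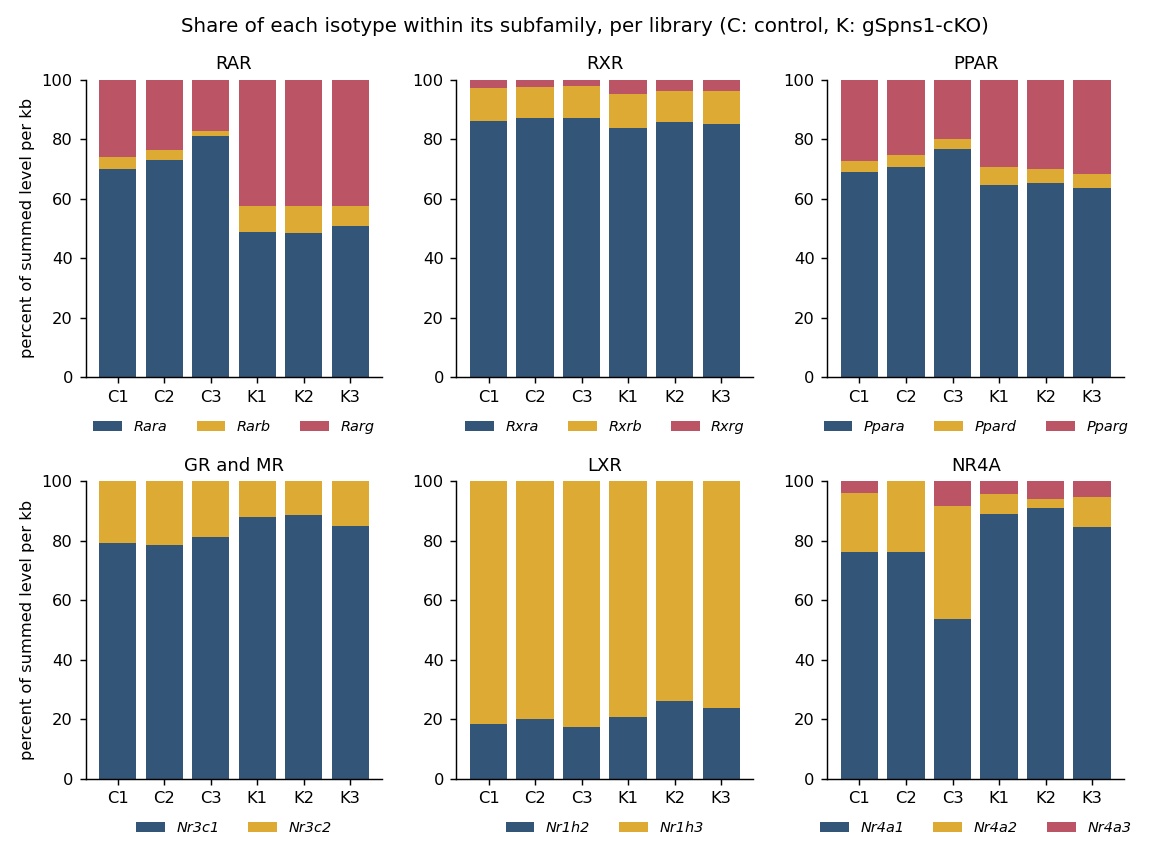
Share of each isotype in the summed level per kilobase of its subfamily (percent, y axis) in each of the 6 libraries (C1 to C3 control, K1 to K3 gSpns1-cKO, x axis), for 6 subfamilies. The Rarg part of the RAR bars is 17.3 to 26.0% in control and 42.5 to 42.6% in gSpns1-cKO livers, while the Rxra part of the RXR bars stays between 83.6 and 87.2% in all 6.

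Sensors of sterols and fatty acids couple lipid levels to lipid metabolism. Nr1h3 (chr2:91184061-91202834, minus strand), which encodes the liver X receptor LXRα, an oxysterol sensor, was at 120.3, 140.0 and 133 CPM in control and 92.7, 85.1 and 80.6 CPM in gSpns1-cKO livers. It was 1.52-fold lower without overlap (−0.61 ± 0.11, adjusted p = 0.00186). Its paralogue Nr1h2, LXRβ, was at 36.0, 46.5 and 37.6 CPM in control and 32.6, 40.5 and 33.3 CPM in gSpns1-cKO livers, which overlapped (−0.18 ± 0.13, adjusted p = 0.311). The Nr1h3 share of the pair went from 81.4 ± 1.25% to 76.4 ± 2.72% (SD, n = 3; exact permutation p = 0.1).

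Ppara (chr15:85734983-85802819, plus strand) encodes PPARα, the fatty acid receptor that drives fatty acid oxidation in hepatocytes. It was at 65.6, 59.2 and 79.6 CPM in control and 43.1, 52.2 and 47.8 CPM in gSpns1-cKO livers, 1.43-fold lower without overlap (−0.51 ± 0.13, adjusted p = 0.00997). Pparg, the adipocyte isotype, was at 19.9, 16.3 and 15.9 CPM and at 15.1, 18.4 and 18.3 CPM, and the groups overlapped (−0.01 ± 0.14, adjusted p = 0.958). Ppard, the widely expressed isotype, was at 7.22, 6.79 and 6.99 CPM in control and 8.03, 7.72 and 7.12 CPM in gSpns1-cKO livers, which overlapped (0.12 ± 0.14, adjusted p = 0.527). Within the PPAR group the Ppara share went from 72.1 ± 4.10% to 64.4 ± 0.808% (SD, n = 3), and the Pparg share from 24.1 ± 3.81% to 30.3 ± 1.15%, both with an exact permutation p of 0.1.

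Nr1h5 (chr3:102939658-102964133, minus strand) encodes FXRβ, a lanosterol-binding relative of the bile acid receptor. It had 89, 93 and 60 counts in control and 134, 246 and 261 counts in gSpns1-cKO livers, or 3.17, 3.02 and 2.37 against 3.73, 6.41 and 6.64 CPM. Nr1h5 rose 1.96-fold (0.97 ± 0.25, adjusted p = 0.0119), with cKO 1 close to the control livers and the other two far above them. The call was lost without control 3 (adjusted p = 0.0514) or cKO 3 (0.0586), in a range from 0.000397 to 0.0586 over the alternatives.

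The xenobiotic sensors PXR and CAR induce drug-metabolising enzymes. Nr1i2 (chr16:38248323-38294824, minus strand), which encodes PXR, was at 107, 103 and 119 CPM in control and 62.2, 96.1 and 68.7 CPM in gSpns1-cKO livers. It was 1.45-fold lower without overlap (−0.54 ± 0.16, adjusted p = 0.0206), and cKO 2 lay just under the control range. The call was lost without control 3 (adjusted p = 0.0739) or cKO 3 (0.0826), and with upper-quartile scaling (0.0699), in a range from 0.000215 to 0.646. Nr1i3, which encodes CAR, spread widely among the gSpns1-cKO livers, at 17.3, 47.1 and 33.4 CPM, around control values of 33.97, 34.03 and 41.1 CPM (−0.16 ± 0.36, adjusted p = 0.761). Of the exon bases of Nr1i3, 74.9% are shared with Tomm40l on the opposite strand. Before scaling, Tomm40l had 279, 361 and 390 counts in control and 174, 299 and 240 in gSpns1-cKO livers. Nr1i3 itself had 955, 1048 and 1041 counts in control and 622, 1807 and 1311 in gSpns1-cKO livers.

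**Figure D3:**
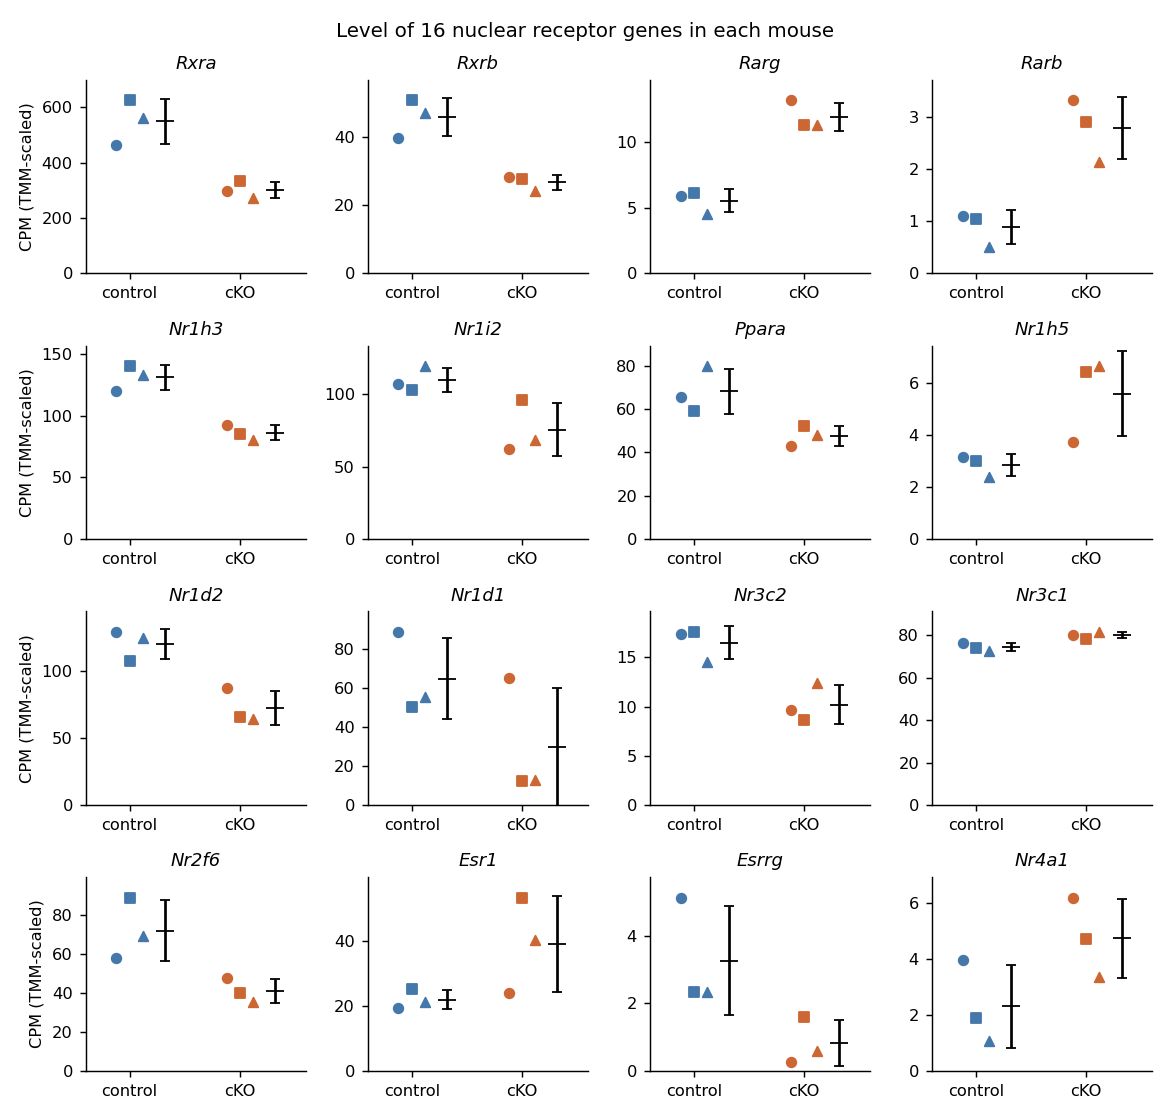
CPM on the TMM scale (y axis, from 0) of 16 receptor genes in each mouse of the control and gSpns1-cKO groups, with circle, square and triangle for replicates 1, 2 and 3 and a black mark for the mean ± SD (n = 3; the bar of Nr1d1 is clipped at 0). Rxra, Rxrb, Nr1h3 and Nr1d2 show every gSpns1-cKO liver under every control liver, Rarg and Rarb show the opposite, and in Nr1d1, Esr1 and Nr1h5 the circle of cKO 1 stands apart from the other two.

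Thyroid hormone receptors bind triiodothyronine, mostly as dimers with RXR. Thrb, the main isotype of hepatocytes, was at 34.4, 29.9 and 33.5 CPM in control and 29.6, 25.1 and 26.4 CPM in gSpns1-cKO livers, which did not overlap but did not pass (−0.27 ± 0.11, adjusted p = 0.0746). Without cKO 1 Thrb passed (adjusted p = 0.0379, with a range from 0.0379 to 0.325 over the alternatives). Thra was at 15.4, 13.7 and 11.03 CPM and at 14.6, 11.7 and 8.83 CPM, which overlapped (−0.20 ± 0.19, adjusted p = 0.446). Thrb held 60.4 ± 4.36% of the pair in control and 59.4 ± 4.96% in gSpns1-cKO liver (SD, n = 3; exact permutation p = 0.5). Vdr, the vitamin D receptor, had 1 or 2 counts in every library and was not tested.

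Steroid receptors were represented by the glucocorticoid, mineralocorticoid and estrogen receptors. Nr3c1, the glucocorticoid receptor, varied little among mice, at 76.5, 73.9 and 72.7 CPM in control and 80.2, 78.3 and 81.4 CPM in gSpns1-cKO livers. The groups did not overlap, yet the difference was small and did not pass (0.11 ± 0.10, adjusted p = 0.404). Nr3c2 (chr8:76899442-77245012, plus strand), the mineralocorticoid receptor, was at 17.4, 17.6 and 14.5 CPM in control and 9.62, 8.63 and 12.4 CPM in gSpns1-cKO livers. It was 1.62-fold lower without overlap (−0.69 ± 0.16, adjusted p = 0.00589). Nr3c1 thus made up 79.7 ± 1.43% of the pair in control and 87.3 ± 1.91% in gSpns1-cKO liver (SD, n = 3; exact permutation p = 0.1).

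Esr1, which encodes estrogen receptor α, was at 19.5, 25.4 and 21.2 CPM in control and 24.0, 53.4 and 40.3 CPM in gSpns1-cKO livers. cKO 1 lay inside the control range and the other two above it, and the difference did not pass (0.83 ± 0.285, adjusted p = 0.0552). Esr1 passed in 9 of 15 alternatives, in a range from 0.000136 to 0.159, among them DESeq2's Wald test (0.00394), limma-voom (0.0435) and the fit without cKO 1 (0.000324). The Cre-ERT2 transgene of the gSpns1-cKO mice carries an altered estrogen receptor ligand-binding domain. In counts per gene, any of its reads that were assigned to Esr1 cannot be told apart from reads of Esr1 itself. Whether any were so assigned was not tested. Esr2 had at most 6 counts and Pgr, the progesterone receptor, at most 5 counts in any library, and neither was tested.

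Clock receptors repress or activate genes of the circadian clock, REV-ERBs as haem-binding repressors and RORα as their activating counterpart at shared sites. Nr1d2 (chr14:18204054-18239127, minus strand), which encodes REV-ERBβ, was at 129, 107 and 124 CPM in control and 87.1, 65.6 and 64.1 CPM in gSpns1-cKO livers. It was 1.66-fold lower without overlap (−0.73 ± 0.14, adjusted p = 0.00240). Nr1d1, which encodes REV-ERBα, split the gSpns1-cKO livers: cKO 1 was at 64.7 CPM, within the control values of 88.4, 50.0 and 55.4 CPM, whereas cKO 2 and cKO 3 were at 12.2 and 12.7 CPM. Its difference did not pass (−1.11 ± 0.84, adjusted p = 0.353), but it did without cKO 1 (−2.38, adjusted p = 0.000840) and with limma-voom (0.0472), in a range of adjusted p up to 0.593. Nr1d1 and Thra are convergent neighbours that share 263 exon bases on opposite strands, 8.5% of Nr1d1. The time of day at which each liver was taken is not given in the sources used here. Rora was at 75.2, 56.0 and 70.7 CPM in control and 55.9, 51.7 and 58.5 CPM in gSpns1-cKO livers, which overlapped (−0.28 ± 0.13, adjusted p = 0.0967), and it passed without control 2 (0.0249, in a range up to 0.356).

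NR4A receptors are immediate early genes that act without a known natural ligand. Nr4a1 had 111, 58 and 27 counts in control and 222, 180 and 132 counts in gSpns1-cKO livers, or 3.95, 1.88 and 1.07 against 6.17, 4.69 and 3.36 CPM, with control 1 above cKO 3, and did not pass (1.04 ± 0.44, adjusted p = 0.0935). It passed in 6 of 15 alternatives, in a range from 0.000496 to 0.245, of which the fit without control 1 gave 1.65 (adjusted p = 0.00671). Nr4a2 had 33, 21 and 22 counts in control and 19, 7 and 18 counts in gSpns1-cKO livers, which did not overlap in CPM (−1.21 ± 0.47, adjusted p = 0.0586). Nr4a3 had 10, 0 and 7 counts against 18, 20 and 14 (1.14 ± 0.75, adjusted p = 0.245). On the per-kilobase scale Nr4a1 took 68.8 ± 12.9% of the NR4A sum in control and 88.3 ± 3.22% in gSpns1-cKO liver, and Nr4a2 took 27.1 ± 9.60% and 6.55 ± 3.47% (SD, n = 3), both with an exact permutation p of 0.1.

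Among the other orphan receptors, 3 of 9 tested fell, beside 20.5% of all genes and 28.1% of those averaging 5 CPM or more. So few genes do not set this group apart from the table as a whole. Nr2f6 (chr8:71374123-71381960, minus strand), a COUP-TF family repressor, was at 57.9, 88.7 and 69.2 CPM in control and 47.8, 39.8 and 35.4 CPM in gSpns1-cKO livers. It was 1.75-fold lower without overlap (−0.81 ± 0.17, adjusted p = 0.00408). Exons of Nr2f6 share 54.4% of their bases with Ocel1 on the opposite strand. Before scaling, Ocel1 had 509, 592 and 433 counts in control and 437, 618 and 481 in gSpns1-cKO livers. Nr2f6 itself had 1628, 2730 and 1750 counts in control and 1720, 1525 and 1392 in gSpns1-cKO livers. TMM scaling lowers gSpns1-cKO values relative to control values, so similar counts do not mean similar levels. Nr2f2, encoding COUP-TFII, a regulator best known from venous endothelium and mesenchyme, was at 35.6, 31.1 and 37.7 CPM and at 24.0, 30.1 and 24.5 CPM, 1.33-fold lower (−0.41 ± 0.13, adjusted p = 0.0237). The Nr2f2 call was lost without control 1 (adjusted p = 0.0537), control 3 (0.0792), cKO 1 (0.0549) or cKO 3 (0.0957) and with upper-quartile scaling (0.105), and its direction turned with library totals alone (0.04, adjusted p = 0.822), in a range from 0.00568 to 0.822. Nr2f1, the third COUP-TF, stayed under 1 CPM in all libraries (0.65 ± 0.39, adjusted p = 0.214).

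Esrrg (chr1:187608791-188214885, plus strand), an estrogen-related receptor of oxidative tissues, had the largest log2 fold change of the 34 tested receptor genes. It had 144, 72 and 59 counts in control and 10, 61 and 23 counts in gSpns1-cKO livers, or 5.12, 2.34 and 2.33 against 0.278, 1.59 and 0.585 CPM. The level was 3.96-fold lower without overlap (−1.99 ± 0.61, adjusted p = 0.0326). Its call was lost without control 1 (adjusted p = 0.0821), control 2 (0.0548), control 3 (0.0535) or cKO 3 (0.118), in a range from 6.82e-08 to 0.118. Esrra, the abundant estrogen-related receptor and a partner of the coactivator PGC-1α, was at 45.6, 54.3 and 48.9 CPM in control and 43.1, 52.8 and 42.4 CPM in gSpns1-cKO livers (−0.11 ± 0.12, adjusted p = 0.514), and its sign turned with library totals alone (0.34, adjusted p = 0.0415).

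Nr5a2, which encodes LRH-1, a driver of bile acid and cholesterol transport genes, was at 52.9, 51.5 and 70.5 CPM in control and 47.8, 55.4 and 53.4 CPM in gSpns1-cKO livers (−0.16 ± 0.14, adjusted p = 0.369). Nr6a1, the germ cell nuclear factor, was at 14.2, 12.6 and 8.58 CPM and at 14.9, 18.4 and 16.2 CPM, without overlap (0.48 ± 0.18, adjusted p = 0.0518). It passed in 8 of 15 alternatives, in a range from 0.00258 to 0.155, among them those without control 1 (0.0288) or cKO 1 (0.0447). Nr2c1, the testicular receptor TR2, was at 27.0, 18.5 and 18.7 CPM in control and 19.4, 14.7 and 15.0 CPM in gSpns1-cKO livers, which overlapped (−0.39 ± 0.17, adjusted p = 0.0969), and it passed without cKO 1 (0.0323, in a range up to 0.820). Nr2c2, encoding TR4, was at 6.30, 6.33 and 5.81 CPM and at 7.06, 8.03 and 6.69 CPM, without overlap (0.24 ± 0.16, adjusted p = 0.243). Exons of Nr2c2, which had 147 to 308 counts, share 30.7% of their bases with Mrps25 on the opposite strand, which had 434 to 573 counts, and reads over those bases cannot be told apart. Nr2c1 held 91.7 ± 1.46% of this pair in control and 87.8 ± 2.17% in gSpns1-cKO liver (SD, n = 3; exact permutation p = 0.1). Nr2e3, the photoreceptor-specific receptor, and Nr0b1, encoding the adrenal and gonadal repressor DAX-1, had 0 counts in all 6 libraries, where 3 counts would correspond to 0.0763 to 0.119 CPM. Hnf4g, the intestinal and renal paralogue of HNF4α, had 0, 2 and 0 counts in control and 4, 14 and 6 in gSpns1-cKO livers and was not tested.

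A further 9 nuclear receptor genes are not among the 40, and 6 of them were tested. Nr0b2, which encodes SHP, the repressor induced by bile acid signalling, was at 20.8, 12.02 and 17.6 CPM in control and 48.2, 32.9 and 34.9 CPM in gSpns1-cKO livers and rose (1.20 ± 0.22, adjusted p = 0.00338). Nr1h4, which encodes the bile acid receptor FXR, was at 151, 149 and 159 CPM and at 119, 127 and 129.6 CPM (−0.29 ± 0.11, adjusted p = 0.0480), a call lost in 12 of 15 alternatives, including all 6 that left out 1 library (0.0749 to 0.127), and reversed in sign with library totals alone (0.16). Hnf4a, the hepatocyte master regulator, did not pass (−0.42 ± 0.17, adjusted p = 0.0666), but did without control 1 (0.0246) or cKO 2 (0.0470), in a range from 0.0232 to 0.879. In cKO 1, Nr1d1, Esr1 and Nr1h5 were all nearer to the control livers than in cKO 2 and cKO 3. For Nr1i2, Ppara, Esrrg, Rarg, Rarb and Nr4a1, cKO 1 was instead the gSpns1-cKO liver farthest from the control livers. Both sets of genes were picked after their values were seen.

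Coactivators and corepressors, which receptors recruit to open or close chromatin, passed in 22.2% of 27, beside 41.8% of all genes. There were 4 higher and 2 lower, with a median log2 fold change of 0.06. This became 1 lower without control 1, cKO 2 or cKO 3, and 21 higher with library totals alone. Ncoa7, an estrogen receptor coactivator, rose (1.52 ± 0.33, adjusted p = 0.00450), and so did Ppargc1a, which encodes PGC-1α, the inducible coactivator of fasting, from 9.38 ± 1.45 to 23.1 ± 8.95 CPM (1.30 ± 0.28, adjusted p = 0.00822). The 2 that fell were Ppargc1b, the paralogue of Ppargc1a, from 4.07 ± 1.31 to 1.80 ± 0.791 CPM (−1.18 ± 0.34, adjusted p = 0.0192), and Tbl1xr1 (−0.65 ± 0.10, adjusted p = 0.000715).

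Lists of genes known as targets of single receptors were set beside the receptor levels. The medians below compare with 0.01 over all genes, and shares of calls with 21.3% higher and 20.5% lower. The 10 hepatocyte markers had a median of −0.56, with 7 lower. The part of hepatocyte content in the lists that fell was not tested. Of 33 tested PPARα target genes, 22 fell and 2 rose, with a median log2 fold change of −0.91, and leaving out 1 library gave 22 or 23 lower. The largest falls were those of Acot1, an acyl-CoA thioesterase, from 45.2 ± 10.7 to 2.81 ± 1.26 CPM (−4.01 ± 0.38, adjusted p = 0.000506) and of Cidec, a lipid droplet protein (−3.34 ± 0.49, adjusted p = 0.00406). The 2 that rose were Pdk4 and Cd36, with log2 fold changes over the 15 alternatives from 0.909 to 1.55 and from 1.26 to 1.97. Neither call was lost in any alternative. Among highly expressed targets, Acadl (−0.27 ± 0.14, adjusted p = 0.154) and Cyp4a14 (0.27 ± 0.42, adjusted p = 0.651) did not pass. With library totals alone 18 of the 33 were still lower and 3 higher, with a median of −0.46.

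Targets of FXR and LRH-1, mostly genes of bile acid synthesis and transport, fell in 12 and rose in 2 of 15 (median −0.70), which became 3 lower with library totals alone and 7 lower without cKO 3. Sult2a8, a bile acid sulfotransferase, was at 812, 639 and 832 CPM in control and at 114, 15.6 and 21.5 CPM in gSpns1-cKO livers (−3.92 ± 0.98, adjusted p = 0.0349), a call lost without control 1, 2 or 3 or cKO 2 or 3 (adjusted p from 0.0685 to 0.0959). Slc51b, a subunit of the bile acid exporter, rose (2.88 ± 0.48, adjusted p = 0.00106). Thyroid hormone receptor targets fell in 7 of 13 (median −0.64), in 4 without control 1, control 2 or cKO 3, and in 3 with library totals alone. Dio1, the deiodinase that activates thyroid hormone, was at 122, 172 and 154 CPM in control and 24.5, 2.92 and 10.1 CPM in gSpns1-cKO livers (−3.58 ± 0.85, adjusted p = 0.0313), a call lost without control 1, 2 or 3 (0.0698 to 0.0818) or cKO 3 (0.121). Tbx3 also fell (−1.53 ± 0.19, adjusted p = 0.000244).

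LXR targets were mixed, with 6 higher and 3 lower of 18 (median 0.34), with 3 higher without control 2, and with 9 higher and 1 lower with library totals alone. Lpl, lipoprotein lipase, rose from 13.4 ± 0.623 to 295 ± 67.5 CPM (4.46 ± 0.18, adjusted p = 2.84e-07), whereas Pltp, the phospholipid transfer protein, fell (−2.00 ± 0.39, adjusted p = 0.0111), a call lost without cKO 3 (0.0510). Abcg1 rose as well (1.63 ± 0.14, adjusted p = 2.74e-05). Macrophages also express LXR targets such as Lpl and Abcg1, and macrophage markers were higher in the same libraries. The part of macrophage content in these changes was not tested. Of 25 tested CAR and PXR targets, 7 rose and 2 fell (median 0.68), with 12 higher without cKO 1 and 14 higher with library totals alone. Cyp2b9, a cytochrome P450, had 5, 4 and 22 counts in control and 143, 8277 and 7057 counts in gSpns1-cKO livers (adjusted p = 0.0386), a call lost without control 1, 2 or 3 or cKO 2 or 3 (0.0953 to 0.123). Akr1b7, an aldo-keto reductase, had 1, 0 and 5 counts against 36, 230 and 448 (adjusted p = 0.0194), a call lost without control 1 (0.0774), control 2 (0.0720) or cKO 2 (0.0635).

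Retinoid target and metabolism genes rose in 4 and fell in 2 of 19 (median 0.21), with 2 higher without control 3 or cKO 3 and 5 lower without cKO 1, and with 7 higher with library totals alone. Aldh1a3, a retinaldehyde dehydrogenase, rose from a low level, from 0.430 ± 0.225 to 1.87 ± 0.686 CPM (2.13 ± 0.46, adjusted p = 0.00424). Its far more abundant paralogue Aldh1a1 fell from 1315 ± 266.6 to 352.5 ± 70.6 CPM (−1.90 ± 0.20, adjusted p = 7.75e-05). Stellate cell and fibroblast markers were higher in the same libraries, and the part of these cells in the retinoid changes was not tested. REV-ERB and ROR targets fell in 6 and rose in 2 of 19 (median −0.16, or 0.28 with library totals alone), with 3 lower without control 1 or cKO 3, 4 higher without cKO 1 and 1 higher without control 1, 2 or 3 or cKO 3. With library totals alone 4 were lower and 7 higher. Elovl3, a fatty acid elongase with a strong daily rhythm, was at 148, 57.7 and 80.7 CPM in control and at 1.64, 0.130 and 0.102 CPM in gSpns1-cKO livers (−7.29 ± 1.07, adjusted p = 0.00766). Dbp, a clock output factor, was at 119, 99.8 and 101 CPM and at 34.8, 10.4 and 8.395 CPM (−2.58 ± 0.65, adjusted p = 0.0348), a call lost without control 1, 2 or 3 or cKO 2 or 3 (0.0664 to 0.104). Arntl instead rose, from 1.38 ± 0.180 to 4.87 ± 2.50 CPM (1.82 ± 0.35, adjusted p = 0.00271), a call kept in all 15 alternatives. The list pools targets of repressors and of an activator, so its median has no single direction to be read against.

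Glucocorticoid receptor targets fell in 10 and rose in 5 of 25 (median −0.30), which became 5 lower and 7 higher with a median of 0.16 with library totals alone. The largest fall was that of Angptl4, an inhibitor of lipoprotein lipase and also on the PPARα list, from 286 ± 46.3 to 39.5 ± 19.9 CPM (SD, n = 3 each; log2 fold change −2.86 ± 0.41, adjusted p = 0.00326). Sult1e1, the estrogen sulfotransferase, had 7, 3 and 4 counts in control and 1207, 1690 and 818 counts in gSpns1-cKO livers (adjusted p = 2.03e-05), and Igfbp1, an insulin-like growth factor binding protein, rose from 56.7 ± 17.7 to 670 ± 120.3 CPM (3.56 ± 0.26, adjusted p = 2.71e-05). Genes that make or clear hormone and sterol ligands fell in 14 and rose in 3 of 24 (median −0.75), with 5 higher without cKO 1 and 6 higher with library totals alone. Hsd3b5, a steroid dehydrogenase of male liver, had 7088, 5249 and 2910 counts in control and 6, 2 and 2 counts in gSpns1-cKO livers (adjusted p = 3.82e-05). The study's methods do not give the sex of these mice. Immediate early genes, the class to which the NR4A receptors belong, rose in 9 of 18 (median 1.13), led among those with at least 1 CPM by Fos (2.61 ± 0.37, adjusted p = 0.000434) and Atf3 (2.48 ± 0.25, adjusted p = 6.34e-05).

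**Figure D4:**
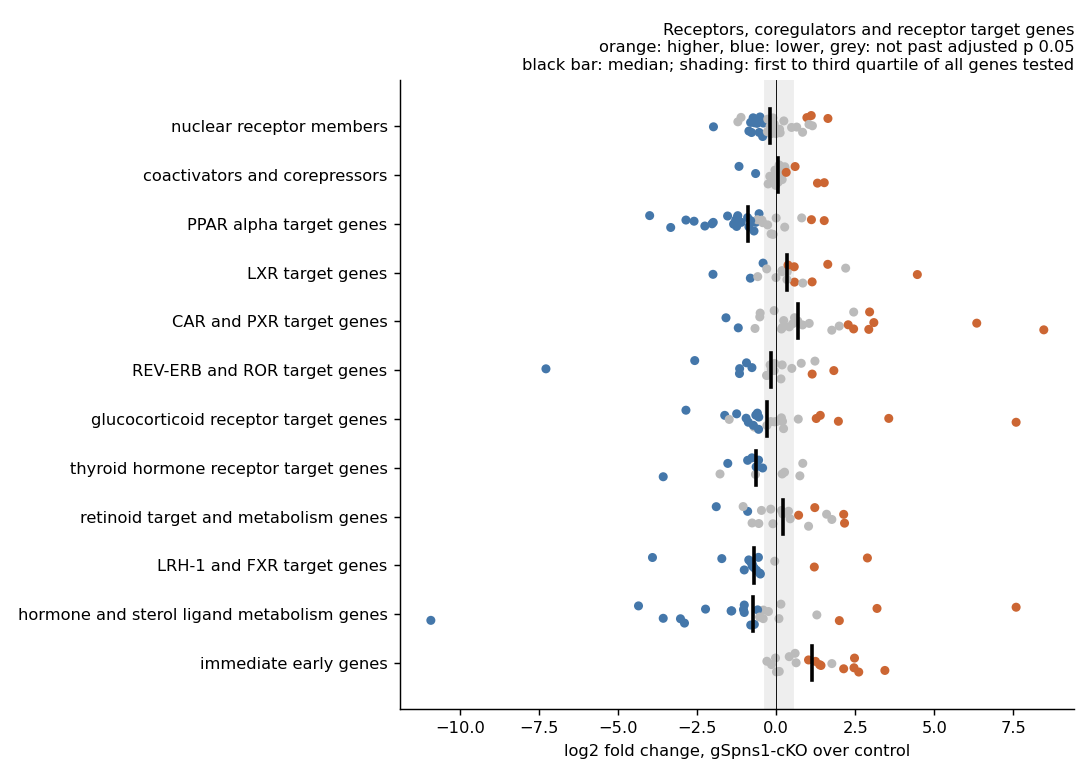
Log2 fold change (gSpns1-cKO over control, TMM-scaled, x axis) of each tested gene in the receptor, coregulator and target gene lists (y axis), with orange for higher, blue for lower and grey for genes not past an adjusted p of 0.05, black bars for the list medians and shading from the first to the third quartile of all genes (−0.37 to 0.53). The receptors lie close to 0, with a median of −0.19, while PPARα targets have a median of −0.91 and immediate early genes of 1.13; with library totals alone the medians of the receptors, of the REV-ERB and ROR targets and of the glucocorticoid receptor targets lie above 0.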

How the data were processed

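Liver RNA-Seq of 3 control and 3 gSpns1-cKO mice was used. The authors deposited whole-number counts per gene, not normalized, with FPKM, a signal per group (the mean of scaled counts), and the log2 fold change and p-value of their own comparison, which were not used. The submitters' processing notes name HISAT2 2.0.5, fastp, featureCounts 1.5.0-p3 and mm10, and the strand setting is not given in the sources used here. In R 4.3.3, counts were filtered by filterByExpr (15449 genes kept), scaled by TMM (factors 0.834 to 0.873 in control, 1.16 to 1.18 in gSpns1-cKO) and compared by edgeR 4.0.16 with the robust quasi-likelihood test, no covariate and Benjamini-Hochberg adjustment over all genes, at 0.05. CPM use the TMM-scaled library size and SE is the log2 fold change over the square root of F. A call means an adjusted p under 0.05.

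Members were taken by name, and the members and all lists were chosen with earlier results of these data known. All members are accounted for, with full values for those past the threshold or with a mean of at least 5 CPM in either group. From other lists up to 4 genes past the threshold were named, by largest log2 fold change, at a mean of at least 1 CPM. The 2 PPARα targets that rose are named besides. Highly expressed genes that did not pass are named only for the other nuclear receptor genes (Hnf4a) and the PPARα targets (Acadl and Cyp4a14). No set test was run. FPKM as deposited served only as an alternative for the isotype shares, which were compared by two-sided exact permutation tests. Alternatives were 3 other scalings, DESeq2 1.42.0, limma-voom (limma 3.58.1), 2 filters, a replicate block, the non-robust fit and leaving out each library. On simulated counts of this comparison (15354 genes tested), 51 of 72 genes changed 2-fold and 72 of 74 changed 4-fold were recovered, with 9 false calls. No 2 libraries of a group agreed within sampling noise (chi-square per gene 40.1 to 121). The labels only number the livers of each group, and each liver was taken as a separate mouse. On that reading the p-values measure the spread between these livers. Positions are GRCm38, and 38 of 40 members had the same coordinates in GENCODE M21. RefSeq promoters covered 37 of 40 members. Intervals from counts at this depth would cover counting error only. Some genes of the lists are not reported here.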

Additional observations from a re-analysis of the deposited data

How the results depend on the processing

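Of the 14 calls among the receptor genes, 4 were kept in all 15 alternatives (Rxra, Rxrb, Rarb and Rarg) and 5 in 14. Library totals alone gave 7289 genes higher and 970 lower, with 12 receptor genes higher, 2 lower and a receptor median of 0.26, and turned the sign of 12 receptor genes. Of these, Nr2f2 (0.0358) and Rara (0.0147) lost a call and Pparg (0.43, adjusted p = 0.0247) and Esrra (0.34, adjusted p = 0.0415) gained one, while Nr1h2, Nr1i3, Nr2c1, Nr5a2, Rora, Rxrg, Thra and Thrb passed on neither scale. The number of receptor genes higher was 5 with upper-quartile scaling, limma-voom or at least 10 counts in every library, and 6 with DESeq2's Wald test, at least 1 count in any library or the replicate block. Leaving out 1 library gave 2 to 5 receptor genes higher, 7 to 13 lower and medians from −0.24 to −0.18, and 2365 to 3213 genes higher and 2125 to 3216 lower over all genes, the fewest without cKO 3. The cause of these shifts was not tested. Same-numbered livers did not deviate together (correlations 0.04, 0.03 and −0.03). With 3 mice a group this cannot exclude a shared litter, and the sources do not say which mice were littermates. The replicate block called 6100 genes and lost Esrrg (adjusted p = 0.0620) among the receptor genes. Isotype shares of the RAR, RXR and PPAR subfamilies kept their direction of difference without length scaling, with FPKM as deposited and without any 1 library. Receptor genes with few counts, such as Nr4a3, Nr2f1 and Rarb, rest on the least depth.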
